A study of Mus musculus with 32 samples.

Results

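Ahr, Ahrr, Tiparp and Arnt are the aryl hydrocarbon receptor, its repressor, a target enzyme that acts back on it, and its DNA-binding partner. The 4 genes were chosen by name, not by their values, from the 46517 genes of the table, and all 4 passed the filter on low values. Each of the 32 libraries came from bulk RNA of Pmel CD8 T cells, sorted as CD8+Thy1.1+. Pmel cells have a transgenic receptor that recognises the melanocyte protein of the same name. The host mice were C57BL/6, 16 weeks old, and labelled with melanoma-associated vitiligo in every group, the naive one included. There were 8 groups of 4 libraries: naive spleen, day 12 tumor-draining lymph node, tumor, spleen, memory from lymph node, skin, lung and liver. Tumor surgery came 45 days before the memory lymph node, skin, lung and liver cells were collected. The labels do not call the spleen group memory, and they give no day for naive, tumor or spleen cells. The labels do not say that the 4 libraries of a group came from separate animals or whether animals were pooled, so the p-values cover no more than the spread among these libraries.

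The receptor is a basic helix-loop-helix PAS protein that waits in the cytoplasm in a complex with Hsp90 and the cochaperone Ptges3. When it binds a ligand, such as a tryptophan derivative, a plant indole or a dioxin, it enters the nucleus, pairs with Arnt and binds DNA sites with the core GCGTG. Target genes include the cytochromes P450 of the Cyp1 family, Ahrr, whose product competes for Arnt, and Tiparp, whose product attaches ADP-ribose to the receptor and dampens it. In skin the receptor is known for supporting the persistence of lymphocytes that reside in the epidermis.

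Ahrr and Tiparp are known targets, and the bases just upstream of their start sites are shown because they hold the letters the receptor complex reads. The sequences are RefSeq's, build GRCm38.p6, written 5′ to 3′ along the gene's own strand. Capitals mark GCGTG or, where the match is on the other strand, its complement CACGC. The Ahrr stretch is chr13:74292332-74292581 on the minus strand, and the Tiparp stretch is chr3:65528197-65528409 on the plus strand. The Tiparp stretch was ended 37 bases early because those bases lie inside the gene in the GENCODE annotation.
Ahrr: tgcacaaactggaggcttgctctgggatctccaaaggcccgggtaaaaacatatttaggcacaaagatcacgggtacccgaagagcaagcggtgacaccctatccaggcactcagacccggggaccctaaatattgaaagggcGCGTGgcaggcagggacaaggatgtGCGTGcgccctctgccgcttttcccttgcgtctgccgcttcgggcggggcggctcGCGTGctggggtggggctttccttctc
Tiparp: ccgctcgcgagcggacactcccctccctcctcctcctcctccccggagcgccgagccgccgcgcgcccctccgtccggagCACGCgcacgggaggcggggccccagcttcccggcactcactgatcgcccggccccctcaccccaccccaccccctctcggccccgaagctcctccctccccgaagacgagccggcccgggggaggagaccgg
In windows of 250 bases before the RefSeq start site, both strands searched, Ahrr held 3 GCGTG matches, which began at bases -107, -82 and -27. The match at -27 lies within the only match to the longer form TNGCGTG among the 3 windows searched. Tiparp held 1 match, on the other strand at base -170, and Arnt held 1 at base -29. GCGTG was found in 28.3% of the 32536 distinct windows of this length, and TNGCGTG in 4.13%. A match is a run of letters and was not tested as a site. Promoter sequences matched 3 of the 4 genes. In the GENCODE annotation of mm10, Ahr lies on chromosome 12 at 35497974 to 35535038, Ahrr on chromosome 13 at 74211118 to 74292331, Tiparp on chromosome 3 at 65528410 to 65555518, and Arnt on the same chromosome at 95434388 to 95497240. An RNA gene overlaps Ahr and a pseudogene overlaps Tiparp, each on the opposite strand, and another pseudogene lies in Arnt on the same strand. None of these 3 is listed in the table under that name, and the sources used here do not say whether counting used strand.

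Levels are given in TPM, a unit scaled to transcript length and to the library total, so that genes can be set side by side. The files hold no counts and depth is unknown. Between 10732 and 34211 genes were above 0 in a library, the fewest in liver replicate 2. The summed level of 16 T cell genes was under 0.5 of the median library in 6 libraries: tumor replicate 4, spleen replicate 4, skin replicate 4 and liver replicates 2, 3 and 4. Where leaving these 6 libraries out changed a call of the 4 genes, or ended a call of a named pathway gene, that is said beside the result. For Cyp1a2 in liver, where 1 library is left, only the difference is given. Calls that pathway genes gained in that fit were not sought. Other cells' genes were summed in the same way: the highest sums were 16499.0 TPM for 13 myeloid genes (liver replicate 2), 3274.2 for 6 lung epithelium genes (lung replicate 3), 518.5 for 8 stromal and endothelial genes (skin replicate 3), 415.7 for 5 genes of CD4 and regulatory T cells (liver replicate 1), 425.7 for 6 NK cell genes and 375.0 for the 3 of 7 erythroid genes that are in the table (both liver replicate 4). Each group was compared on log2(TPM + 1), which understates the change of genes of low level. In bulk libraries, fewer cells with a transcript and less of it per cell cannot be told apart.

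Ahr, the receptor, was highest in skin. Its TPM in the 4 skin libraries were 11.97, 10.22, 11.71 and 7.20, with a mean of 10.3 ± 2.19 (SD, n = 4). Naive cells held 0.95, 0.62, 0.77 and 0.64 TPM, the lowest group by mean, and the skin mean was 13.8 times the naive mean. Day 12 lymph node cells held 2.20, 2.05, 1.85 and 1.70 TPM. Every day 12 library lay above every naive library. In tumor cells the values were 0.97, 1.12, 1.21 and 2.78 TPM, 3 of them below all 4 day 12 values. Spleen cells held 2.50, 2.71, 0.85 and 4.95 TPM and lymph node memory cells 2.45, 3.78, 2.70 and 3.71 TPM. These last 2 groups overlapped. Lung held 3.26, 4.62, 2.85 and 12.03 TPM, and its replicate 4 was as high as the skin libraries. Liver held 1.42, 0.12, 1.48 and 8.58 TPM and had the widest spread of the 8 groups on the log2 scale. In order of mean log2(TPM + 1), Ahr went from naive through tumor, liver, day 12 lymph node, spleen, lymph node memory and lung to skin. Among neighbours in that order, naive and tumor did not overlap, and every other pair did. In 4 of the 8 groups (tumor, spleen, lung and liver) the highest Ahr library was replicate 4.

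**Figure D1:**
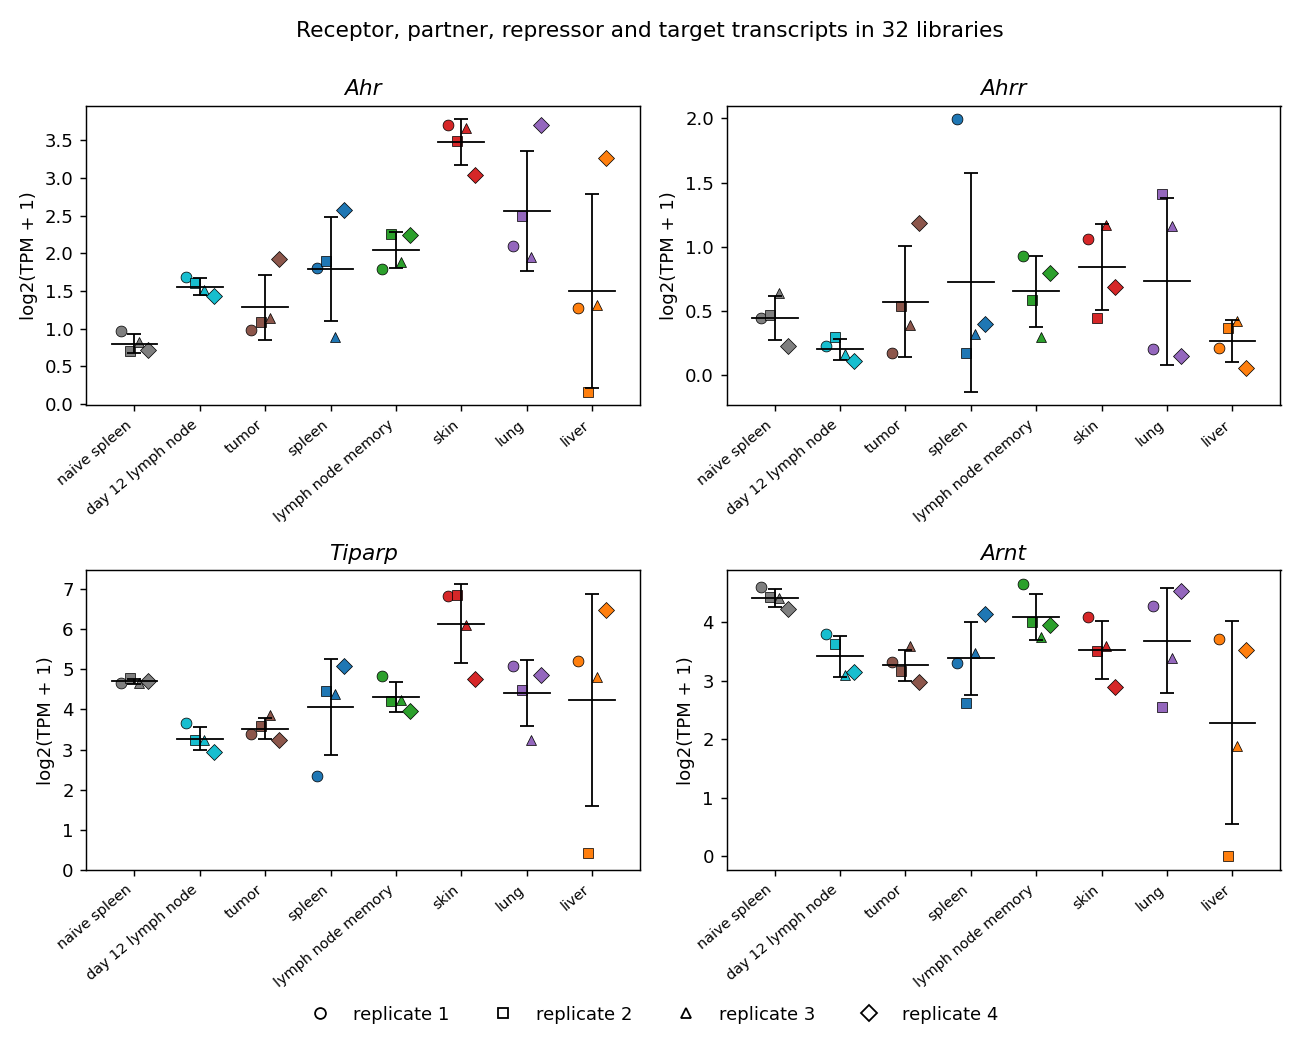
Each panel plots 1 gene, with log2(TPM + 1) on the vertical axis and the 8 groups on the horizontal axis. Symbols are the 4 libraries of a group, horizontal lines are group means and bars are SD. Ahr is highest in skin, where the 4 libraries hold 7.20 to 11.97 TPM, Tiparp reaches 114.83 TPM there, Ahrr stays at or below 2.98 TPM in all 32 libraries, and Arnt has no group apart from the rest.

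The level of Ahr differed among the 8 groups (limma, F-test, adjusted p = 0.000782), and it was the 1 of the 4 genes called by that test, which called 46.9% of the 19738 genes tested. The adjusted p was 0.0621 for Tiparp, 0.0549 for Arnt and 0.501 for Ahrr. Tiparp passed when spleen replicate 1, skin replicate 4, liver replicate 2 or liver replicate 4 was left out, and Arnt when spleen replicate 4, lung replicate 2, liver replicate 1 or liver replicate 4 was. With a weight for the spread of each group, Tiparp (2.32e-06) and Arnt (0.00015) also passed, and without the 6 libraries low in T cell genes Tiparp did (4.92e-05). Ahr passed under all 39 alternatives of this test, with adjusted p between 2.6e-07 and 0.00368.

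In skin against spleen, Ahr rose by 1.68 ± 0.46 on the log2 scale (SE, adjusted p = 0.0183), with a 95% interval of 0.75 to 2.61. On the TPM scale the skin mean was 3.73 times the spleen mean, and all 4 skin libraries lay above all 4 spleen libraries. It was the 1 called of the 4 genes, where 7.68% of all genes were called, and the median change over all genes was -0.12. The call was lost without spleen replicate 3, the lowest spleen library (1.38, adjusted p = 0.0888), and without skin replicate 1 (1.61, adjusted p = 0.0564). It was also lost with a pseudocount of 0.1 (adjusted p = 0.0768) and in a fit of these 2 groups alone (adjusted p = 0.127). Without the 6 libraries low in T cell genes the difference was 2.09.

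In skin against tumor, 2 of the 4 genes rose, Ahr and Tiparp, where 7.34% of all genes were called. Ahr was higher in skin by 2.19 ± 0.46 on the log2 scale (SE, adjusted p = 0.00203), and the skin mean was 6.76 times the tumor mean of 1.52 ± 0.846 TPM (SD, n = 4). This call held under all 16 alternatives, with differences of 2.09 to 2.77 and adjusted p of 2.34e-05 to 0.0153. In skin against lymph node memory, 0 of the 4 genes passed limma's adjusted threshold, where 7.48% of all genes did, and 2 had an unadjusted p under 0.05. There the Ahr difference was 1.43 ± 0.46 (SE, adjusted p = 0.0506), and the libraries of the groups did not overlap. Ahr passed in a fit of these 2 groups alone (adjusted p = 0.0306), with weights per group (0.00851) and without the 6 libraries low in T cell genes (0.00271). The 3 comparisons share the skin libraries, so they are not separate evidence.

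Skin libraries also held the most keratinocyte RNA, and the values are set beside Ahr here. All 10 keratinocyte genes examined are in the table. Their summed level in the 4 skin libraries was 1720.8, 1256.2, 159.8 and 3530.0 TPM, against 48.2 to 305.1 in tumor, 21.7 to 25.7 in spleen, 19.0 to 107.9 in lymph node memory, 23.1 to 50.1 in lung, 27.8 to 48.3 in liver, 14.6 to 15.2 at day 12 and 6.2 to 10.7 in naive cells. Krt1 was listed at 0 in all 4 spleen libraries, Krt5 in all 4 day 12 libraries, and Krt5, Krt1 and Krt15 in all 4 liver libraries. Skin replicate 3 had the least keratinocyte RNA of the skin libraries, below tumor replicates 2 (305.1) and 3 (193.8), and held 11.71 TPM of Ahr against 1.12 and 1.21 in those tumor libraries. Skin replicate 4 had the most and held the least Ahr of the skin group. The sum of 13 myeloid genes was 7246.7 in skin replicate 3 but 35.1 in skin replicate 1, where Ahr was 11.97. In lung, replicates 3 and 4 both had high myeloid sums (11177.1 and 9215.5) and held 2.85 and 12.03 TPM of Ahr. The sum of 8 dendritic and Langerhans cell genes had its highest group mean in skin, as Ahr did, but did not follow Ahr library by library. Its highest value was in liver replicate 2 (82.7), where Ahr was 0.12 TPM. Within skin, replicate 4 had the highest sum (70.8) and the lowest Ahr. The sum was 38.6 to 70.8 in skin, above all libraries of tumor (21.2 to 29.9), lymph node memory (16.5 to 33.7), day 12 (6.4 to 8.8) and naive cells (4.33 to 5.55). It overlapped spleen (12.2 to 48.9), lung (21.9 to 54.2) and liver (31.1 to 82.7). Cd207, the Langerhans cell lectin, was listed at 0 in all 4 naive, day 12, spleen and lung libraries. Gamma delta T cells and type 3 innate cells also carry the receptor, and 5 of their 7 listed genes are in the table. The sum of these was 25.0, 21.5, 17.6 and 6.2 in skin, against 7.3, 2.3, 5.0 and 5.8 in tumor, 11.6 to 55.2 in spleen, 10.8 to 43.3 in lymph node memory, 16.8 to 28.3 at day 12, 46.6 to 55.2 in naive cells, 10.3 to 39.6 in lung and 0.0 to 46.5 in liver. In skin against tumor it was thus higher in 3 of the 4 skin libraries than in any tumor library, as Ahr was in all 4. The sum of 5 genes of CD4 and regulatory T cells, of which Ctla4 and Il2ra are also made by activated CD8 cells, was 373.2, 393.0, 200.8 and 89.9 in skin, with replicate 4 lowest for this sum and for Ahr. It was 30.4 to 60.1 in spleen, 85.1 to 116.8 in tumor, 87.0 to 158.3 in lymph node memory, 50.1 to 57.7 at day 12, 10.9 to 16.4 in naive cells, 51.1 to 97.6 in lung and 71.8 to 415.7 in liver. The part of other cells in the Ahr results was not tested.

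**Figure D2:**
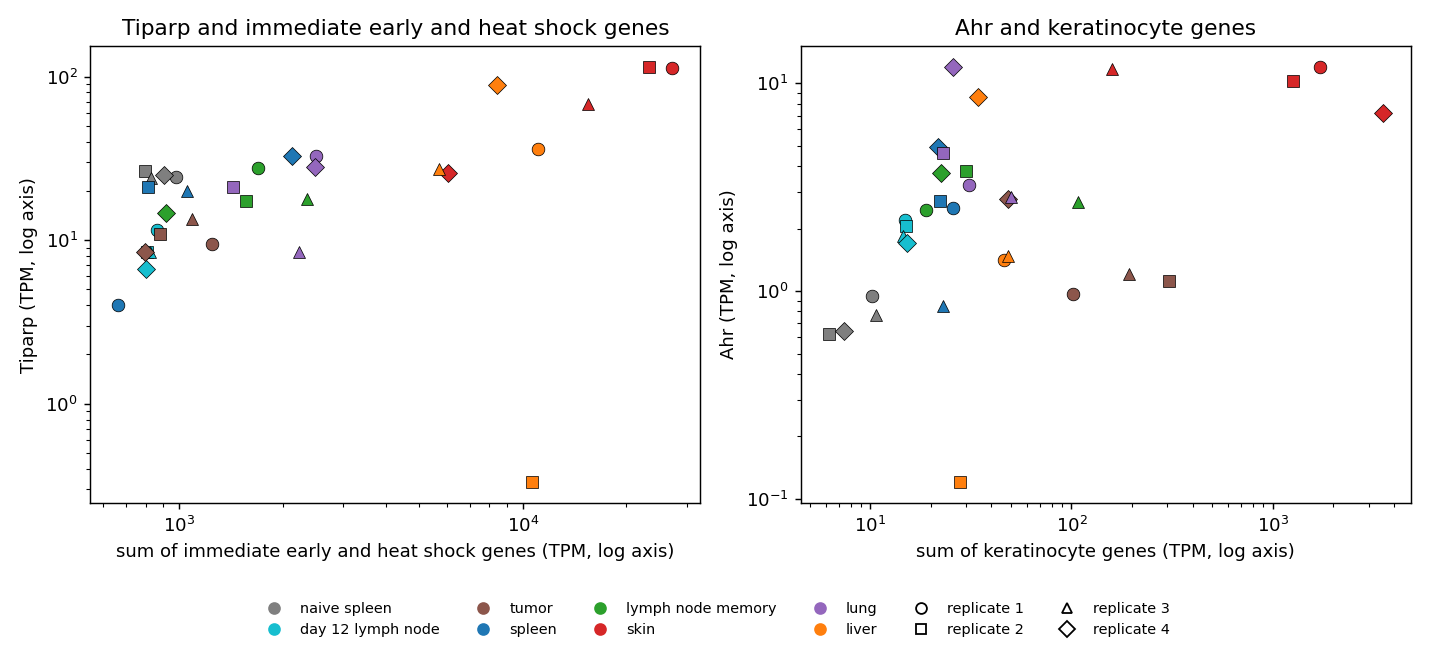
The left panel plots Tiparp against the summed level of 20 immediate early and heat shock genes, and the right panel Ahr against the summed level of 10 keratinocyte genes, in TPM on log axes, with 1 symbol per library. In the right panel skin replicate 3 stands among the tumor libraries on the horizontal axis (159.8) and with the other skin libraries on the vertical axis (11.71); in the left panel liver replicate 2 stands apart at 0.33 TPM of Tiparp.

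Tiparp, the ADP-ribosylating enzyme, had the highest mean level of the 4 genes in every group but day 12, where Arnt did, and was highest in skin. The skin libraries held 112.62, 114.83, 67.93 and 25.83 TPM, a mean of 80.3 ± 42.3 (SD, n = 4). Replicate 4 stood below the other skin libraries, within the range of naive and lung cells. Naive cells held 24.23, 26.46, 24.13 and 25.05 TPM, the narrowest group. Day 12 cells held 11.61, 8.51, 8.44 and 6.69 TPM, all below all naive libraries, and tumor cells 9.52, 10.91, 13.51 and 8.48 TPM. Day 12 and tumor were the lowest groups by mean, and they overlapped. Spleen held 4.02, 21.01, 19.99 and 32.73 TPM, lymph node memory 27.45, 17.44, 17.78 and 14.60, and lung 32.54, 21.16, 8.48 and 28.05. These 3 groups overlapped one another. Liver held 35.95, 0.33, 27.10 and 88.38 TPM, from the lowest value of all 32 libraries to a value within the skin range. In order of mean log2(TPM + 1), Tiparp went from day 12 through tumor, spleen, liver, lymph node memory, lung and naive to skin, and the libraries of every neighbouring pair overlapped.

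In skin against tumor, Tiparp rose by 2.62 ± 0.76 on the log2 scale (SE, adjusted p = 0.0287), with a 95% interval of 1.07 to 4.16. The skin mean was 7.57 times the tumor mean of 10.6 ± 2.18 TPM (SD, n = 4), and every skin library lay above every tumor library. The call was lost in 6 of the 8 fits that left out 1 library: without tumor replicate 1, 2 or 4, and without skin replicate 1, 2 or 3, the largest adjusted p being 0.0983. It was also lost with no filter (0.0544) and with a pseudocount of 0.1 (0.0995). Against spleen the Tiparp difference was 2.07 ± 0.76 (SE, adjusted p = 0.0992) and against lymph node memory 1.83 ± 0.76 (SE, adjusted p = 0.147), and skin replicate 4 overlapped both groups. Without the 6 libraries low in T cell genes, which include that one, the differences were 2.87 (adjusted p = 8.5e-05) and 2.29 (0.000683).

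Immediate early and heat shock transcripts, which can be induced while tissue is digested, moved with Tiparp and with Ahr in skin. All 20 genes of that list rose in skin against spleen, with a median change of 4.89, where 7.68% of all genes were called. In skin against tumor 15 of the 20 rose, where 7.34% of all genes were called. Their summed level in the 4 skin libraries was 27263.7, 23257.6, 15486.9 and 6048.2 TPM, and replicate 4 was lowest for this sum, for Tiparp and for Ahr. In liver the sums were 11063.7, 10649.0, 5704.1 and 8425.7 TPM, beside Tiparp at 35.95, 0.33, 27.10 and 88.38 and Ahr at 1.42, 0.12, 1.48 and 8.58. In the other 6 groups they ran from 664.3 to 2496.1 TPM, Tiparp from 4.02 to 32.73 and Ahr from 0.62 to 12.03. Naive cells had low sums (797.2 to 977.2) with Tiparp at 24.13 to 26.46. Per the labels' protocols, lymph nodes were taken apart mechanically, skin and liver were digested with collagenase IV and lung with Liberase, so tissue and digestion cannot be told apart. The part of these transcripts in the Tiparp and Ahr results was not tested.

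Arnt, the receptor's partner for DNA binding, had its highest mean in naive cells, where Ahr had its lowest, and was called in none of the 10 comparisons. Naive cells held 23.37, 20.51, 20.35 and 17.69 TPM, a mean of 20.5 ± 2.32 (SD, n = 4). Day 12 cells held 12.97, 11.33, 7.53 and 7.86 TPM, tumor cells 9.05, 7.94, 11.10 and 6.87, and spleen cells 8.94, 5.16, 10.18 and 16.60. All libraries of these 3 groups lay below all naive libraries. Lymph node memory held 24.17, 15.06, 12.44 and 14.52 TPM, skin 16.06, 10.38, 11.12 and 6.41, and lung 18.32, 4.88, 9.46 and 22.20. Liver held 12.18, 0.00, 2.68 and 10.57 TPM, with replicate 2 listed at 0. In order of mean log2(TPM + 1), Arnt went from liver through tumor, spleen, day 12, skin, lung and lymph node memory to naive, and every neighbouring pair overlapped. In skin against spleen, where Ahr rose, the Arnt difference was 0.13 with a 95% interval of -0.97 to 1.24, and in skin against tumor it was 0.26 (-0.85 to 1.36). Those intervals do not show that Arnt was equal in these groups.

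Ahrr, the repressor, was low throughout and passed no test. It was at or under 1.66 TPM in 31 of 32 libraries, and the exception was spleen replicate 1 at 2.98. Day 12 cells held 0.17, 0.23, 0.12 and 0.08 TPM and naive cells 0.36, 0.38, 0.56 and 0.17. Skin held 1.09, 0.36, 1.25 and 0.61 TPM, within the range of lung (0.15, 1.66, 1.24 and 0.11). The other groups were tumor at 0.13, 0.45, 0.31 and 1.27, spleen at 2.98, 0.13, 0.25 and 0.32, lymph node memory at 0.90, 0.50, 0.23 and 0.74, and liver at 0.16, 0.29, 0.34 and 0.04 TPM. The skin against spleen difference was 0.12 with a 95% interval of -0.55 to 0.79. That scale compresses levels below 1 TPM, so the interval does not tell whether Ahrr changed by the same ratio as Ahr. In order of mean log2(TPM + 1), Ahrr went from day 12 through liver, naive, tumor, lymph node memory, spleen and lung to skin, and every neighbouring pair overlapped.

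The step from naive to day 12 lymph node gave no call of the 4 genes. The libraries of Ahr, Tiparp and Arnt did not overlap there. The share of all genes without overlap was not computed, so this is a description and not a result about the 4 genes. The Ahr difference was 0.76 ± 0.46 (SE, adjusted p = 0.349), Tiparp differed by -1.43 ± 0.76 (SE, adjusted p = 0.269) and Arnt by -1.002 ± 0.54 (SE, adjusted p = 0.281). limma called 0 of the 4 genes, where it called 11.1% of all genes, and 0 had an unadjusted p under 0.05. The standard errors come from a spread shared by all groups, and the residual SD over all genes was 0.387 in naive and 0.303 in day 12 cells but 1.327 in liver. Without the 6 libraries low in T cell genes, none of which is in these 2 groups, Tiparp (adjusted p = 0.00926) and Arnt (0.0317) passed with the same differences. With weights per group the adjusted p was 1.77e-05 for Ahr, 3.41e-07 for Tiparp and 7.22e-06 for Arnt, and in a fit of these 2 groups alone it was 0.000469, 3.5e-05 and 0.00112. The day 12 mean was 2.62 times the naive mean for Ahr, and the naive mean was 2.83 times the day 12 mean for Tiparp and 2.06 times for Arnt. The sum of the immediate early and heat shock genes was 799.3 to 864.4 TPM at day 12 and 797.2 to 977.2 in naive cells.

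In the other comparisons limma called 0 of the 4 genes. In spleen against naive, where 6.08% of all genes were called, 1 of the 4 had an unadjusted p under 0.05: Ahr differed by 0.99 (adjusted p = 0.23), and with weights per group it passed (0.0457). Arnt differed there by -1.03 (adjusted p = 0.309) with no overlap between libraries, and passed without the 6 libraries low in T cell genes (-1.28, adjusted p = 0.0138). In tumor against day 12 lymph node 6.97% of all genes were called and in tumor against spleen 6.25%, and 0 of the 4 genes had an unadjusted p under 0.05 in either. In lymph node memory against spleen 0.481% of all genes were called and in lung against spleen 0.111%, again with 0 of the 4 at an unadjusted p under 0.05. In liver against spleen 13.6% of all genes were called, with a median change of -0.53 over all genes, and 1 of the 4 had an unadjusted p under 0.05. It was Arnt, at -1.11 (adjusted p = 0.15). Without liver replicate 1 it passed at -1.59 (adjusted p = 0.0292), and without the 6 libraries low in T cell genes, which leaves 1 liver library, the difference was 0.58.

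**Figure D3:**
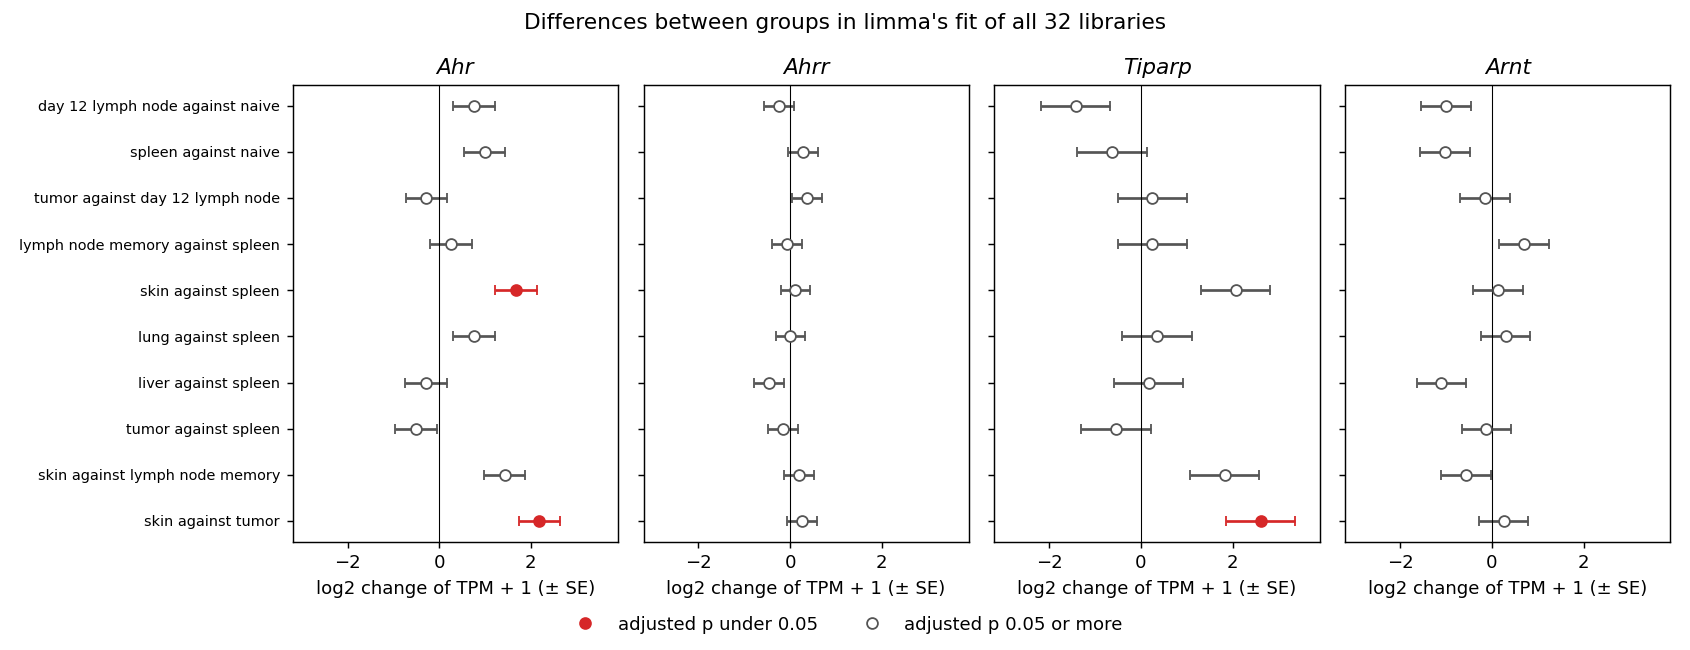
Each panel plots 1 gene, with the difference in log2(TPM + 1) on the horizontal axis for the 10 comparisons listed on the left; points are limma estimates and bars are SE. Red points have an adjusted p under 0.05: Ahr in skin against spleen (1.68) and against tumor (2.19), and Tiparp in skin against tumor (2.62).

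The genes that the receptor induces in metabolic tissues were mostly near 0 in these cells. Of 9 listed, 6 passed the filter on low values. Aldh3a1, an aldehyde dehydrogenase, and Cyp1a2, a cytochrome P450 of liver, were called across the groups, beside 46.9% of all genes. Both passed the filter through the group where they are high, Aldh3a1 in skin and Cyp1a2 in liver, so they had to differ, and their differences are given as a description. Aldh3a1 held 10.40, 6.20, 4.84 and 6.37 TPM in skin and at most 0.67 in any other library, and the skin difference was 2.71 ± 0.22 (SE) against spleen, 2.72 against lymph node memory and 2.59 against tumor. Skin replicate 3, with less keratinocyte RNA than tumor replicates 2 and 3, held 4.84 TPM of Aldh3a1 against 0.13 and 0.29 in those. That skin library also had the highest stromal and endothelial sum of all libraries (518.5 TPM) and a myeloid sum of 7246.7 TPM. The part of other cells in Aldh3a1 was not tested. Cyp1a2 held 2.47, 37.64, 5.76 and 51.70 TPM in liver and 16.79 in lung replicate 3, and at most 0.30 elsewhere. The sum of 10 hepatocyte genes was 802.2, 9831.1, 3093.7 and 29917.4 TPM in those liver libraries and 9718.6 in lung replicate 3, against at most 456.6 elsewhere. The Cyp1a2 difference in liver against spleen was 3.89 ± 0.66 (SE). Without the 6 libraries low in T cell genes, which leaves 1 liver library, it was 1.795. Ugt1a6a, a glucuronosyltransferase, was called in liver against spleen (2.13, adjusted p = 0.0412), with 32.82 and 33.58 TPM in liver replicates 2 and 4 and 0.23 and 0.09 in the other two. Without liver replicate 2 or 4, or any 1 spleen library, it was not called, and without the 6 libraries low in T cell genes its difference was -0.26. The genes of its locus share exons, so the counting could have split reads among them.

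Cyp1a1, the most used readout of receptor activity, did not pass the filter and has no test. It was listed at 0.55, 2.43, 0.64 and 0.74 TPM in tumor and at 1.18, 0.00, 0.00 and 20.38 in skin, and at no more than 0.36 in any other library. Skin replicate 4, which held the 20.38 TPM, also had the highest keratinocyte sum of all libraries (3530.0) and the lowest Ahr and Tiparp of the skin group. In the tumor libraries the keratinocyte sums were 102.1, 305.1, 193.8 and 48.2 and the sums of 7 melanocyte and melanoma genes 362.4, 848.9, 401.3 and 384.7 TPM, against at most 359.4 outside tumor. Cyp1b1 was at most 1.62 TPM, in skin replicate 4. Nqo1, a quinone reductase, was at most 2.93 TPM and was not called in any comparison.

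**Figure D4:**
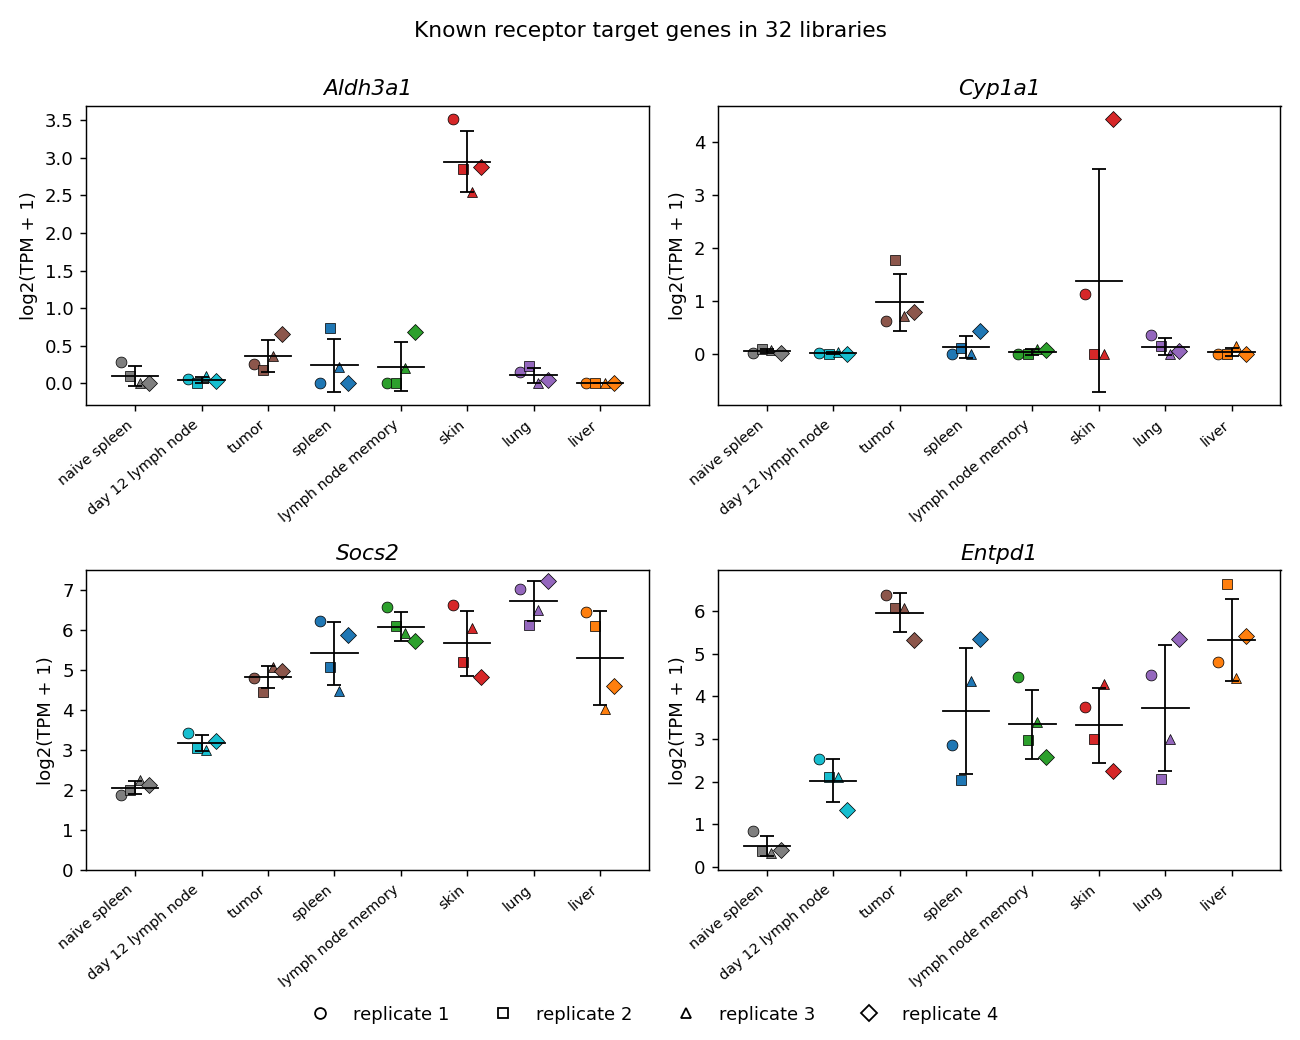
Each panel plots 1 known target gene, with log2(TPM + 1) on the vertical axis and the 8 groups on the horizontal axis. Symbols are the 4 libraries of a group, lines are means and bars are SD. Aldh3a1 stands apart in skin (4.84 to 10.40 TPM), Cyp1a1 is led by skin replicate 4 (20.38 TPM), and Socs2 and Entpd1 are lowest in naive cells.

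Of 6 targets described in immune cells, 4 were tested. None of the 4 was called in skin against spleen, where 7.68% of all genes were called. Socs2, a feedback inhibitor of cytokine signalling, rose in spleen against naive by 3.37 ± 0.45 (SE, adjusted p = 6.82e-06) and in tumor against day 12 by 1.65 ± 0.45 (SE, adjusted p = 0.022). It held 2.66 to 3.75 TPM in naive, 7.06 to 9.75 at day 12, 20.79 to 32.65 in tumor, 21.54 to 74.25 in spleen and 68.96 to 149.40 in lung. Entpd1, the ectoenzyme CD39 that breaks down extracellular ATP, was highest by median in tumor (81.86, 66.61, 66.60 and 39.15 TPM) and lowest in naive cells (0.80, 0.31, 0.25 and 0.33). It rose in tumor against day 12 by 3.94 ± 0.64 (SE, adjusted p = 0.000168) and in spleen against naive by 3.16 ± 0.64 (SE, adjusted p = 0.00186). It fell in skin against tumor by 2.64 ± 0.64 (SE, adjusted p = 0.00843), the comparison in which Ahr rose. The Socs2 change in tumor against day 12 was lost when any of 5 libraries was left out: day 12 replicates 2, 3 and 4 and tumor replicates 3 and 4. Entpd1 was also called in tumor against spleen (2.31, adjusted p = 0.0264), but not without tumor replicate 1, 2 or 3 or spleen replicate 1 or 2. Il10 was called in liver against spleen (2.78, adjusted p = 0.0345), with 69.60 TPM in liver replicate 3 and 0.00 in replicate 2, and not without liver replicate 3 or 4, spleen replicate 1, 2 or 3, or the 6 libraries low in T cell genes. Il22 and Gpr15 were too low to be tested, and Kit was not called.

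Among the receptor's chaperones, Hsp90aa1, the inducible form of Hsp90, rose at day 12 against naive by 1.47 ± 0.35 (SE, adjusted p = 0.00413). Its levels were 636.99, 696.52, 651.04 and 739.00 TPM at day 12 and 288.79, 248.83, 212.40 and 237.31 in naive cells. It fell in tumor against day 12 by 1.17 (adjusted p = 0.0368), a call lost in 7 of the 8 fits that left out 1 library, all but the one without tumor replicate 1. In skin against spleen Hsp90aa1 rose by 1.28 (adjusted p = 0.0189) and Hsp90ab1, the constitutive form, by 1.25 (adjusted p = 0.0289). Both calls were lost when spleen replicate 1, 2 or 3 or skin replicate 1 or 2 was left out. They were also lost with weights per group and in a fit of these 2 groups alone. In skin against lymph node memory Hsp90aa1 rose by 1.18 (adjusted p = 0.0328), and lost the call without lymph node memory replicate 1 or 2 or skin replicate 1 or 2. Ptges3 was called across the groups (adjusted p = 0.0167) and in none of the 10 comparisons.

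The next list joined 14 genes, those of the receptor's bHLH-PAS family and of the PAS proteins Per1, Per2 and Per3. Of these, 13 were tested and 8 were called across the groups, beside 46.9% of all genes. In skin against spleen 3 of the 13 rose, Ahr, Per1 and Arnt2, beside 7.68% of all genes, with a median change of 0.50 over the list and -0.12 over all genes. Per1, a clock component and repressor, held 23.92, 25.61, 24.77 and 8.44 TPM in skin and 2.17, 1.08, 1.03 and 5.94 in spleen. Its change was 2.69 ± 0.46 against spleen (SE, adjusted p = 0.00019), 2.01 against lymph node memory (adjusted p = 0.00576) and 2.60 against tumor (adjusted p = 0.000302), and it passed under all 16 alternatives of each. Per1 has the same low replicate in skin as Tiparp and the immediate early list. Arnt2, a paralog of Arnt that can take its place as a partner, held 5.11, 3.75, 3.72 and 1.62 TPM in skin and 0.19, 0.23, 0.00 and 0.71 in spleen, a change of 1.79 ± 0.46 (SE, adjusted p = 0.0132). That call was lost without skin replicate 1, with quantile normalization and in a fit of these 2 groups alone. Per3, another clock repressor, rose in skin against tumor by 1.12 (adjusted p = 0.041), lost in 5 of the 8 fits without 1 library (tumor replicates 1, 2 and 3, skin replicates 1 and 2). In liver against spleen Per3 fell by 1.55 (adjusted p = 0.00454) and Per1 rose by 1.497 (adjusted p = 0.0309), the latter not without spleen replicate 2 or 3 or liver replicate 4. The Per3 call was lost with weights per group, with quantile normalization and in a fit of these 2 groups alone. Without the 6 libraries low in T cell genes the Per3 call in liver was lost.

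Of 12 genes for the uptake and breakdown of tryptophan, a source of receptor ligands, 8 were tested. Ido1, Ido2, Kyat1 and Aadat were not tested. Slc3a2, the shared heavy chain of the amino acid transporters CD98, held 444.35, 362.51, 352.36 and 109.80 TPM in skin and 95.50, 98.89, 106.61 and 140.01 in spleen. Slc3a2 rose by 1.36 ± 0.33 (SE, adjusted p = 0.00742) in skin against spleen, a call that all 8 fits without 1 library kept and the fit of these 2 groups alone did not (adjusted p = 0.19). It rose by 1.13 in skin against lymph node memory (adjusted p = 0.0301), lost in 6 such fits (lymph node memory replicates 1, 2 and 4, skin replicates 1, 2 and 3), and by 0.98 in liver against spleen (adjusted p = 0.0455), lost in 5 (spleen replicates 1, 2 and 3, liver replicates 1 and 2). Slc7a5, the light chain that carries tryptophan, rose in tumor against spleen by 2.08 (adjusted p = 0.0471), a call lost without any 1 of the 4 tumor libraries or spleen replicate 1 or 2. Il4i1, a secreted oxidase that makes indole ligands from tryptophan, fell in skin against lymph node memory by 2.83 ± 0.75 (SE, adjusted p = 0.0172). It held 1.57, 0.14, 2.06 and 1.18 TPM in skin and 8.11, 14.30, 6.70 and 45.46 in lymph node memory, and the call was lost without lymph node memory replicate 4 or skin replicate 2. The highest Il4i1 libraries were replicate 4 of lung (53.37), lymph node memory (45.46) and spleen (45.39). The sums of 8 B cell genes were 628.3, 1492.8 and 2525.2 TPM in those 3 libraries, the highest of their own groups. Liver replicate 4 had a B cell sum of 774.0 TPM, and Il4i1 was at most 6.77 TPM in liver. The myeloid sums in the same 3 libraries were 9215.5, 622.4 and 8654.5 TPM. The part of these other cells in Il4i1 was not tested. Slc7a8, another light chain, was called in liver against spleen (1.71, adjusted p = 0.0282), and not without liver replicate 2 or 3, spleen replicate 1, 2 or 3, or the 6 libraries low in T cell genes.

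Tiparp belongs to the PARP family, enzymes that attach ADP-ribose to proteins. Of its 15 members examined, all tested, 9 were called across the groups, beside 46.9% of all genes. In skin against tumor, where 7.34% of all genes were called, Tiparp and Parp16, a mono-ADP-ribosyltransferase of the endoplasmic reticulum, rose, and Parp14 fell by 1.46 (adjusted p = 0.0397). Parp16 held 21.36, 21.87, 20.93 and 5.64 TPM in skin and 5.40, 4.76, 3.92 and 3.05 in tumor, a change of 1.67 ± 0.42 (SE, adjusted p = 0.012). The Parp16 call was lost without skin replicate 2 and with a pseudocount of 0.1. Parp14 lost its call without tumor replicate 1, 2 or 3 or skin replicate 2, 3 or 4. In skin against lymph node memory, where 7.48% of all genes were called, 3 members fell: Parp14 by 1.93 (adjusted p = 0.00599), Parp1, the nuclear DNA damage enzyme, by 1.58 (adjusted p = 0.0357), and Parp3 by 1.69 (adjusted p = 0.045). The Parp14 call there held in every alternative, the Parp1 call was lost without lymph node memory replicate 1, 2 or 4 or skin replicate 1, 3 or 4, and the Parp3 call without any 1 lymph node memory library or skin replicate 1 or 4, or without the 6 libraries low in T cell genes. At day 12 against naive Parp12 (-1.77, adjusted p = 0.034) and Parp14 (-1.43, adjusted p = 0.033) fell, and in tumor against day 12 they rose by 1.90 (adjusted p = 0.0335) and 1.60 (adjusted p = 0.0243). Both day 12 calls were lost without any 1 of the 8 libraries. In tumor against day 12 the Parp12 call was lost without any library but tumor replicate 4, and the Parp14 call without day 12 replicate 1, 2 or 3 or tumor replicate 2 or 3.

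Parp4, a PARP of vault particles, fell in skin (-1.37, adjusted p = 0.0477), tumor (-1.58, adjusted p = 0.0231) and liver (-2.23, adjusted p = 0.00165) against spleen. Its spleen values were 40.65, 31.65, 15.64 and 11.81 TPM, and the calls in skin and tumor were lost without either replicate 1 or replicate 2 of spleen. The skin call was lost also without skin replicate 1, 2 or 4, and the tumor call without tumor replicate 2, 3 or 4. In liver Parp10 (-2.51, adjusted p = 0.00346), Parp16 (-1.86, adjusted p = 0.00597) and Parp11 (-1.49, adjusted p = 0.0349) also fell, beside a median change of -1.27 over the 15 members and -0.53 over all genes. Without the 6 libraries low in T cell genes Parp4, Parp10 and Parp16 lost the liver call and the Parp11 difference was 0.04. Parp11 also lost it without spleen replicate 3 or 4 or liver replicate 2 or 3.

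The genes most like each of the 4 over the 32 libraries were sought among 7253 genes of mean log2(TPM + 1) of at least 3, by Pearson's r. The libraries share groups and differ in composition, so r is a description. Ahr was most like Rell1 (r = 0.81), a relative of the tumor necrosis factor receptors, Smox (0.78), a polyamine oxidase, and Tnfsf9 (0.77), a costimulatory ligand. Tnfsf9 held 166.75, 126.68, 122.99 and 30.23 TPM in skin and 1.35, 1.14, 0.52 and 1.14 in naive cells. Tiparp was most like Dnajb4 (0.93), a heat shock cochaperone, Rnf103 (0.91), a ubiquitin ligase, and Il4ra (0.88), an interleukin receptor chain. Arnt was most like Atp11b (0.97), a lipid flippase, Zfp740 (0.95) and Lrrc45 (0.95). For Arnt the listed genes share its low value in liver replicate 2, where Zfp740 and Lrrc45 are at 0.00 TPM and Atp11b at 0.37. Ahr (0.12 TPM) and Tiparp (0.33 TPM) also had their lowest values of all 32 libraries in liver replicate 2. Every gene listed for Ahr or Tiparp had a lowest liver value of 0.00 TPM. Ahrr was most like Sympk (0.79), Tango2 (0.78) and Kcnmb4 (0.78). All of these 3 are high in spleen replicate 1, the library of the highest Ahrr, with 42.82, 230.24 and 150.68 TPM. Among the 4 genes themselves, r was 0.63 for Ahr with Tiparp, 0.54 for Tiparp with Arnt, 0.24 for Ahr with Ahrr, 0.23 for Ahr with Arnt, -0.08 for Ahrr with Tiparp and -0.04 for Ahrr with Arnt.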

How the data were processed

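Bulk RNA libraries of sorted Pmel T cells, 32 in 8 groups of 4, were sequenced. Bowtie and the mm10 build are named in the submitters' processing notes, without a version. The sources used here name no annotation, counting step or strand setting. The deposited table holds natural log values of TPM + 1, which was settled from the values: converted back they are multiples of 0.01 TPM and each library sums to between 999999.1 and 1000000.8. No counts are held, so depth and counting error are unknown, and the number of libraries limits the precision. The table has 0 columns that were left unused. Of its names, 82.2% matched a GENCODE symbol. The deposited values were converted to log2(TPM + 1), and limma 3.58.1 in R 4.3.3 fitted all 8 groups in 1 model with a trend of variance (24 residual degrees of freedom). The filter was 1 TPM in at least 4 libraries, which 19738 genes passed. The 10 comparisons and an F-test across the groups were each adjusted by Benjamini-Hochberg over all genes, at a threshold of 0.05. A 95% interval is from the same fit.

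The 4 genes, the gene lists and the tests were chosen with earlier results of these data known. The rule for names took the 4 genes, up to 4 genes of each pathway list by the smallest adjusted p across the groups, and for each of the 4 genes the 3 genes of highest Pearson's r, leaving out predicted genes and marker genes. Cyp1a1, Cyp1b1, Nqo1, Ugt1a6a, Kit and the Parp genes 3, 11, 12 and 14 were named after their values were seen, as were the untested genes of the lists. Marker lists were T cell identity, hepatocyte, erythroid, myeloid, dendritic and Langerhans cell, B cell, keratinocyte, melanocyte and melanoma, lung epithelium, NK cell, stroma and endothelium, CD4 and regulatory T cell, and gamma delta T cell with type 3 innate cell. Their TPM were summed per library. 1 gene of the chaperone list is not reported here. Alternatives were a pseudocount of 0.1, no filter, a filter of 5 TPM, only the 2 groups, a replicate block, weights per group, quantile normalization, the fit without the 6 libraries low in T cell genes, and leaving out each library. The fit was tested on simulated data. No 2 libraries held identical values. Python 3.11.15 with pandas 2.3.3, NumPy 2.4.6 and Matplotlib 3.10.9 served for the rest.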

Additional observations from a re-analysis of the deposited data

Results flagged for a closer look

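Of 32 gene and group combinations of 4 libraries, 3 held a library whose gap to the next, divided by the range of the group, was above Dixon's 95% critical value for 4 samples. Chance gives about 1 in 20 such groups. Ahr was 2.78 TPM in tumor replicate 4 and 0.97 to 1.21 in the other tumor libraries (ratio 0.867). Ahr was 8.58 TPM in liver replicate 4 and 0.12 to 1.48 in the other liver libraries (ratio 0.839). Both libraries are among the 6 low in T cell genes. Ahrr was 2.98 TPM in spleen replicate 1 and 0.13 to 0.32 in the other spleen libraries (ratio 0.933).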

How the results depend on the processing

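For the 4 genes, 785 alternative values were computed: 705 kept direction and side of the threshold, 36 gained a call, 12 lost one and 32 changed sign. The number of the 4 genes called across the groups was 2 with a filter of 5 TPM, 2 with the replicate block, 3 with weights per group, 2 with quantile normalization, 2 without the 6 libraries low in T cell genes, and 1 to 3 without single libraries. In day 12 lymph node against naive it was 3 with weights per group, 2 without the 6 libraries and 3 with only the 2 groups. In spleen against naive it was 1 with weights per group and 1 without the 6 libraries. In skin against spleen it was 0 with a pseudocount of 0.1, 2 with quantile normalization, 2 without the 6 libraries, 0 with only the 2 groups, and 0 to 1 without single libraries. In skin against lymph node memory it was 1 with the replicate block (Ahr, adjusted p = 0.0367) and 2 with weights per group, quantile normalization, the 6 libraries left out or only the 2 groups. In skin against tumor it was 1 with a pseudocount of 0.1, 1 with no filter and 1 to 2 without single libraries, and in liver against spleen 0 to 1. The causes were not tested.

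No changed sign concerned a called difference of the 4 genes. With a pseudocount of 0.1 Ahrr was 0.169 in lymph node memory against spleen and Tiparp -0.155 in liver against spleen. With quantile normalization Ahrr was -0.083 in lung, 0.366 in liver and -0.052 in skin against spleen, Ahr 0.678 in liver and Arnt 0.004 in tumor against spleen. Without the 6 libraries Ahrr was -0.099 in lung, Arnt 0.222 in tumor and 0.581 in liver against spleen, and of the pathway genes Ugt1a6a was -0.258 and Parp11 0.044 in liver against spleen. Without single libraries Ahrr ran from -0.144 to 0.461 in spleen against naive, and against spleen from -0.253 to 0.353 in lymph node memory, -0.064 to 0.541 in skin, -0.218 to 0.432 in lung and -0.356 to 0.272 in tumor. Tiparp ran from -0.335 to 0.581 in lymph node memory, -0.232 to 0.736 in lung and -0.587 to 1.437 in liver, Ahr from -0.049 to 0.513 in lymph node memory and -0.874 to 0.159 in liver, and Arnt from -0.122 to 0.383 in skin and -0.379 to 0.126 in tumor, all against spleen.

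The main fit did not pair libraries by replicate number. Deviations of libraries with the same number correlated at -0.393 to 0.467, no comparison of 10 had every pair over 0.1, and 11 of 32 libraries correlated best with their own number. The largest values were between replicate 4 libraries: 0.467 in skin against lymph node memory, 0.437 in skin against tumor, 0.417 in liver against spleen and 0.414 in lung against spleen. Whether the replicate 4 libraries share a source was not tested. The alternatives for the pathway genes were added after the data were seen: of 45 calls, 12 held under every alternative in which the gene was tested, and 219 of 714 values lost the call. The 12 include Aldh3a1 in skin against spleen, lymph node memory and tumor, and the 45 also include Cyp1a2 in liver against spleen. Both genes passed the filter through the group where they are high, so these calls are no measure of stability. Of the 45, a fit of the 2 groups alone ended 23, no filter 17, weights per group 12 and a pseudocount of 0.1 ended 11. Losses in these settings are named beside some of the pathway calls only. The number of all genes called moved by more than 1.5 times in every comparison. It was 2189 in day 12 against naive (1557 to 11201 over the alternatives), 1201 in spleen against naive (782 to 4348), 1376 in tumor against day 12 (774 to 8937), 1515 in skin against spleen (422 to 3251), 1477 in skin against lymph node memory (823 to 2657) and 1448 in skin against tumor (903 to 2783). Against spleen it was 95 in lymph node memory (4 to 2303), 22 in lung (0 to 894), 2681 in liver (49 to 5351) and 1233 in tumor (811 to 2679), and across the groups it was 9259 (7443 to 15135). Quantile normalization moved the median change of all genes from -0.53 to -0.08 in liver against spleen, where the share of calls that were higher went from 18.1% to 55.3%. It moved that share from 59.5% to 48.2% in spleen against naive, 65.3% to 48.2% in tumor against day 12, 74.7% to 63.0% in lymph node memory against spleen and 42.5% to 55.9% in skin against lymph node memory. The filter of 5 TPM left Ahrr and Aldh3a1 untested.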
